A study of Mus musculus with 4 samples.

Results

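A set of 8 genes of antibody diversification was examined in follicular B (FOB) cells of the mouse spleen with and without hnRNP F: Ung, Msh6, Exo1, Polh, Trp53bp1, Rif1, Xrcc5 and Lig4. They were chosen by name, as 8 of the 55401 genes in the deposited count table, together with their entries in the deposited list of splicing events. HnRNP F is an RNA-binding protein that binds guanine-rich stretches of transcripts and takes part in splicing. Class switch recombination replaces the constant region of the heavy chain, and somatic hypermutation changes the variable regions of the antibody genes. Both processes begin when cytosine is converted to uracil in DNA, and both mainly belong to activated B cells, whereas FOB cells are the resting, recirculating B cells of the follicle. The uracil is then removed by Ung or recognised as a mismatch by the complex that holds Msh6. Error-prone gap filling gives mutations, and double-strand breaks are protected by 53BP1 (the product of Trp53bp1) and Rif1 and closed by the Ku proteins and Lig4.

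The 4 RNA-seq libraries came from 2 WT and 2 Hnrnpf bKO samples of C57BL/6 mice labelled 7 weeks old. WT mice carried Hnrnpf fl/fl without Cre. Hnrnpf bKO mice carried Hnrnpf fl/fl with a Cre made in B cells, which removed exon 4 of Hnrnpf there, so that Cre was present in the knockout group only. The loxP-flanked Hnrnpf alleles were shared by both groups, no treatment was labelled, and cells were sorted as B220+, CD93-, CD23 high and CD21 low. It was not stated whether animals were pooled or whether the 2 libraries of a group came from different mice, so the p-values measure only the spread between these samples, which may be technical.

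Between 15698567 and 18908963 counts were assigned to genes per library, and 14123 genes passed the filter on low counts. Hnrnpf itself had 5780 and 6634 counts in WT against 1167 and 1194 in Hnrnpf bKO, with 20.1% of the WT level left. The B cell markers summed to between 13407 and 13775 CPM (counts scaled to the normalised library size) in every library, while the 5 T cell markers summed to between 16.8 and 31.0 CPM. By edgeR's quasi-likelihood test at an adjusted p of at most 0.05, of the 9 B cell markers 3 rose and 4 fell. Fcer2a (which encodes CD23) and Ighd rose by 0.22 and 0.28 on the log2 scale, and Ms4a1, Pax5 and Ebf1 fell by 0.29, 0.20 and 0.24. Loss of hnRNP F and presence of Cre cannot be told apart in these groups. Of 5 myeloid markers 2 rose, S100a8 by 1.53 and S100a9 by 1.34, and the 5 summed to 11.2 and 17.5 CPM in WT against 21.7 and 32.6 in Hnrnpf bKO. Of 5 marginal zone markers Cd1d1 rose by 0.34 and Cr2, Dtx1 and S1pr3 fell by 0.47, 0.23 and 0.46, with sums of 1503 and 1305 CPM in WT against 1088 and 1097 in Hnrnpf bKO. Of 5 transitional markers 3 were tested, Cd93 rose by 0.85, Rag2 was at 0 counts in all libraries, and the sums were 423 and 430 CPM in WT against 390 and 417 in Hnrnpf bKO. The part of these cells in the values of the 8 genes was not tested. None of the 5 T cell or 5 plasma cell markers was called by edgeR's quasi-likelihood test, nor had any an unadjusted p under 0.05. DESeq2 and limma called none of them either, and the plasma cell markers summed to between 324 and 351 CPM.

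Exo1 was the only member with an entry in the deposited splicing list, an alternative 5′ splice site, where the intron begins at a different position of the same exon. The list names the gene and the type of event without its position. Among internal exons, the annotation (GENCODE M21, GRCm38, plus strand) holds alternative 5′ splice sites at 2 exons of Exo1 that could be concerned. Both are shown because the entry could not be assigned to either. First exons were not searched, so the event may also lie at a site that is not shown. Exon 9 is coding and lies at chr1:175893741-175893834. Its 94 bases end either at the capitals or after them, and the 45 bases in capitals lie between the annotated sites, a multiple of 3.
Exo1 exon 9: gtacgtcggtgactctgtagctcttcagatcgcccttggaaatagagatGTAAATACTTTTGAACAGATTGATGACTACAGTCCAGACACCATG
Exon 2 lies before the coding start and has annotated ends that make it 69, 96 or 223 bases long. The 27 bases that separate the shortest end from the next, all in capitals, lie at chr1:175881201-175881227.
Exo1 exon 2 extension: GTGAAGCCGCTGCTGCTGTTACCTCGG

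An exon that is skipped in 1 annotated transcript of Rif1 is shown because Rif1 was the only member whose mRNA level passed the test. This exon, number 32, holds 78 bases or 26 codons at chr2:52116668-52116745 on the plus strand of GRCm38. No event of Rif1 was in the splicing list.
Rif1 exon 32: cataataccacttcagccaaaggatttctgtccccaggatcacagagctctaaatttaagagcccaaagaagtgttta

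All 8 genes had mRNA in the libraries of sorted FOB cells, over a 36.9-fold range of level per length. The levels were compared as FPKM, the authors' counts scaled by exonic length and library total. Over the 4 libraries Msh6 was the most abundant at 17.7 ± 1.32 FPKM (SD, n = 4), followed by Xrcc5 at 10.9 ± 0.710, Rif1 at 7.00 ± 0.896 and Trp53bp1 at 6.63 ± 0.191. Polh had 3.50 ± 0.252 FPKM, Ung 2.57 ± 0.143 and Lig4 2.26 ± 0.296. Exo1 was the lowest at 0.480 ± 0.0783 FPKM. These SDs take both groups together and so include the difference between them. For Rif1 the SD was 0.255 within WT and 0.134 within Hnrnpf bKO. The ranges over libraries were apart for 5 of the 7 pairs of neighbours in this order and overlapped for Rif1 with Trp53bp1 and for Ung with Lig4. Among all genes tested, Msh6 stood at the 77.4th percentile of FPKM, Rif1 at the 53.6th and Ung at the 31.9th. Fewer cells that express a gene and less RNA per cell cannot be told apart in these bulk libraries, and this bears first on Exo1.

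**Figure D1:**
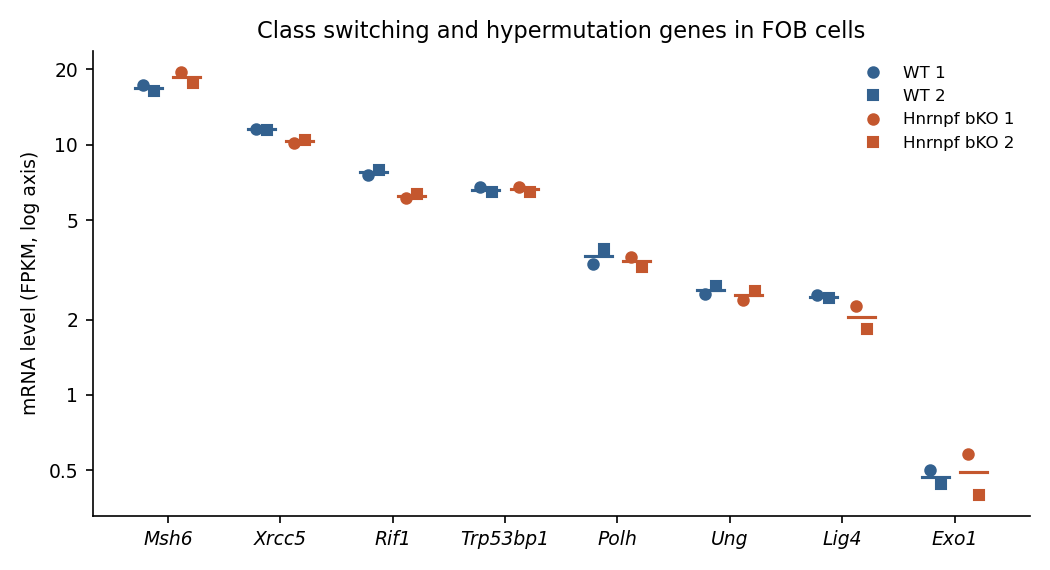
mRNA level of the 8 genes as FPKM on a log axis, with a point for each library and a bar at the mean of each group. Msh6 lies between 16.4 and 19.6 and Exo1 between 0.40 and 0.58, and the Rif1 points of Hnrnpf bKO lie below those of WT.

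Of the 8 genes, Rif1 alone was called lower in Hnrnpf bKO, by 19.0%, and none was called higher. Calls were made with edgeR's quasi-likelihood test at an adjusted p of at most 0.05, with Benjamini-Hochberg adjustment over all genes tested. One of 8 members passed (12.5%), beside 6.97% of all genes in either direction and 2.83% of all genes called lower. None passed the further limit of a 2-fold change, which 0.899% of all genes met. Only Rif1 had an unadjusted p under 0.05 by edgeR and by DESeq2. By limma on FPKM 2 of the 7 members tested were lower at an unadjusted p under 0.05, and none was called. The share of all genes at this unadjusted limit is not given here. The median log2 fold change was −0.06 over the members and −0.00229 over all genes. The CPM values of the groups did not overlap for 4 of the 8, beside 50.1% of all genes.

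**Figure D2:**
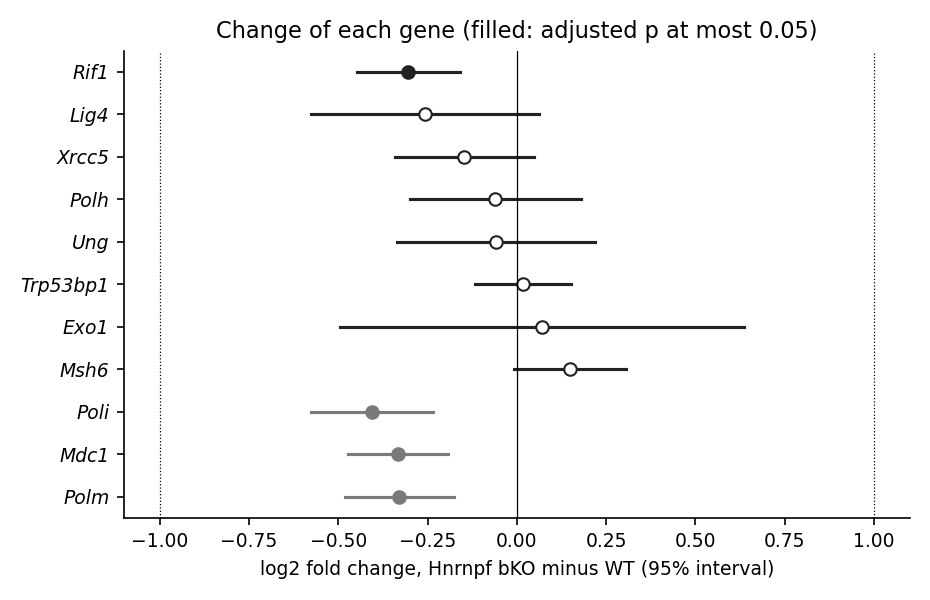
Log2 fold change of Hnrnpf bKO over WT with its 95% interval for the 8 genes (black) and for the 3 called genes of the wider pathway (grey). Filled points have an adjusted p of at most 0.05 and dotted lines mark a 2-fold change. Only Rif1, at −0.30, is filled among the 8.

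The genes that act on the uracil came first in the pathway. Ung encodes the uracil-DNA glycosylase that removes this base, and its Ensembl gene, ENSMUSG00000029591, lies at chr5:114130386-114139323 on the plus strand. Ung had 13.8 and 14.8 CPM in WT (226 and 282 counts) against 13.1 and 14.4 CPM in Hnrnpf bKO (205 and 258 counts). The groups overlapped. Its log2 fold change was −0.06 (SE 0.13, 95% interval −0.34 to 0.22, edgeR adjusted p = 0.849), an interval that leaves between 79.2% and 116% of the WT level. Smug1, which encodes another uracil glycosylase, had 558 and 668 counts in WT against 525 and 556 in Hnrnpf bKO, with a log2 fold change of −0.10 (edgeR adjusted p = 0.564).

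Germinal centers are where B cells hypermutate, and the 7 germinal center B cell markers summed to 153 and 172 CPM in WT against 124 and 140 in Hnrnpf bKO. Both Hnrnpf bKO sums lay below both WT sums, and 6 of the 7 log2 fold changes were negative, with a median of −0.47. Without Bcl6, which made up most of the sum, the other 6 summed to 16.4 and 28.7 CPM in WT against 23.1 and 10.2 in Hnrnpf bKO. These sums overlapped, with the second WT and the first Hnrnpf bKO library high and the second Hnrnpf bKO library low. None of the 7 passed edgeR's test, DESeq2 or limma, and 1 had an unadjusted p under 0.05 by edgeR and by DESeq2. The part of such cells in the values of the 8 genes was not tested.

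Msh6 encodes a subunit of the complex that binds base mismatches, here the uracil opposite guanine. The gene, ENSMUSG00000005370, lies at chr17:87975062-87990892 on the plus strand. Its CPM was 75.4 and 70.7 in WT (1235 and 1347 counts) against 85.0 and 77.1 in Hnrnpf bKO (1334 and 1382 counts). Both Hnrnpf bKO libraries lay above both WT libraries. The difference did not pass the test, with a log2 fold change of 0.15 (SE 0.07, 95% interval −0.01 to 0.30, edgeR adjusted p = 0.270). A similar gene, Gm11855, was 94.1% identical over 1872 bases and had 0 counts in every library.

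Exo1 encodes the exonuclease that removes the strand next to the mismatch. The gene, ENSMUSG00000039748, lies at chr1:175880581-175913489 on the plus strand. With 69 and 70 counts in WT against 77 and 61 in Hnrnpf bKO it was the least deeply covered member, at 4.21 and 3.68 CPM in WT against 4.91 and 3.40 in Hnrnpf bKO. The 2 Hnrnpf bKO libraries lay on either side of both WT libraries. The log2 fold change was 0.07 with an SE of 0.26 (95% interval −0.50 to 0.64, edgeR adjusted p = 0.919), and it turned to −0.21 without the first Hnrnpf bKO library and to −0.02 without the second WT library. Levels between 70.9% and 155% of WT lie within that interval, so a change within this range was not told apart from none.

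Exo1 belongs to the genes that rise in dividing cells, so its values were set beside those of cycling markers. The 12 cycling markers summed to 171 and 237 CPM in WT against 231 and 158 in Hnrnpf bKO. The second WT and the first Hnrnpf bKO library were high in this sum, while Exo1 was highest in the first Hnrnpf bKO library and second highest in the first WT library. None of the 12 passed edgeR's test, DESeq2 or limma, and none had an unadjusted p under 0.05. The part of cycling cells in the values of Exo1 was not tested.

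**Figure D3:**
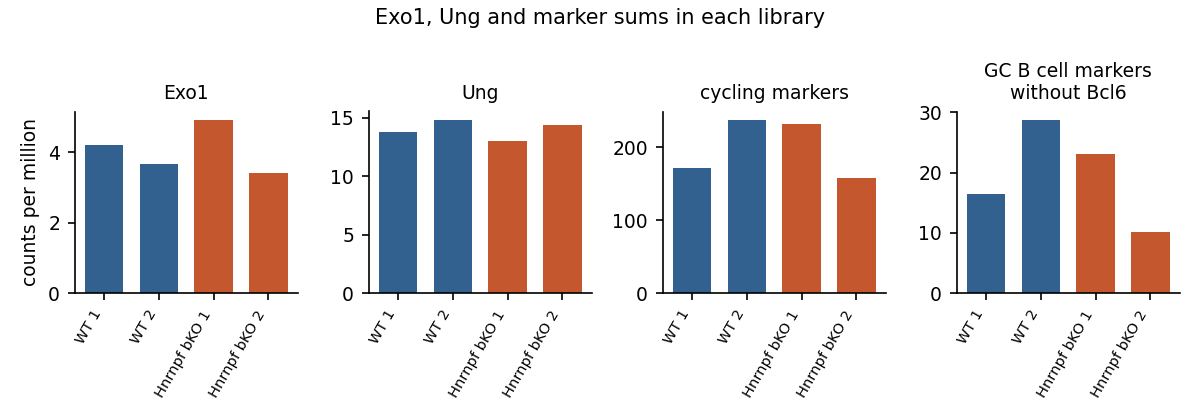
CPM of Exo1 and Ung and the summed CPM of 12 cycling markers and of 6 germinal center (GC) B cell markers without Bcl6, with a bar for each library. The marker sums are high in the second WT and the first Hnrnpf bKO library, while Ung lies between 13.1 and 14.8 CPM in all 4.

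The splicing entry of Exo1 was 1 of 145 alternative 5′ splice site events among the 1556 events of the deposited list, which named 1173 genes. One of the 8 members (12.5%) had an event, beside 1161 of the 14123 genes tested (8.22%) and 1048 of the 9875 that averaged at least 100 counts (10.6%). Of the 57 other pathway genes tested 5 had events (8.77%), namely skipped exons of Pms1, Pms2, Rev3l and Paxx, an alternative 5′ splice site of Pms2 and an alternative 3′ splice site of Exosc10. The 7 members other than Exo1, among them Rif1 with 36 annotated exons in its main transcript and Trp53bp1 with 28, had none.

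Polh encodes DNA polymerase eta, which fills the resected gap with errors at A:T pairs. The gene, ENSMUSG00000023953, lies at chr17:46171355-46202645 on the minus strand. It had 19.9 and 22.6 CPM in WT (325 and 430 counts) against 21.2 and 19.6 in Hnrnpf bKO (333 and 351 counts). The groups overlapped, with a log2 fold change of −0.06 (SE 0.11, 95% interval −0.30 to 0.18, edgeR adjusted p = 0.814). Without the second WT library the value was 0.04. Mad2l2, which encodes a subunit of polymerase zeta and of the shieldin complex, had 342 and 408 counts in WT against 393 and 419 in Hnrnpf bKO, with a log2 fold change of 0.19 (edgeR adjusted p = 0.311).

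Trp53bp1 encodes 53BP1, the chromatin-bound protein that shields double-strand breaks from resection and recruits Rif1. The gene, ENSMUSG00000043909, lies at chr2:121193281-121271407 on the minus strand. It had 96.0 and 90.7 CPM in WT (1571 and 1727 counts) against 96.4 and 92.4 in Hnrnpf bKO (1513 and 1657 counts). The groups overlapped, and the interval was the narrowest of the 8, from −0.12 to 0.15 around a log2 fold change of 0.02 (SE 0.06, edgeR adjusted p = 0.919). The locus of Trp53bp1 overlaps that of Tubgcp4 on the opposite strand over 5490 bases, introns included. Their transcripts matched over 1877 bases at 100% identity, and the strand setting of the counting was not stated. Tubgcp4 had 1154 and 1177 counts in WT against 922 and 1155 in Hnrnpf bKO, and reads of the shared stretch cannot be told apart without strand.

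Rif1 encodes the protein that acts with 53BP1 to hold back resection of the broken switch regions. The gene, ENSMUSG00000036202, lies at chr2:52072832-52122383 on the plus strand, and its exon 32 is shown above. It had 79.5 and 82.8 CPM in WT (1302 and 1577 counts) against 64.5 and 67.0 CPM in Hnrnpf bKO (1012 and 1202 counts). Both Hnrnpf bKO libraries lay below both WT libraries. On the FPKM scale Rif1 had 7.76 ± 0.255 in WT against 6.24 ± 0.134 in Hnrnpf bKO (SD, n = 2 each). Its log2 fold change was −0.30 (SE 0.07, 95% interval −0.45 to −0.16, edgeR adjusted p = 0.0156), which leaves 81.0% of the WT level with an interval of 73.3% to 89.6%. The call was lost without the first Hnrnpf bKO library (log2 fold change −0.28, edgeR adjusted p = 0.0961) and without the second WT library (−0.27, 0.0608). It was also lost with limma on FPKM, where the adjusted p was 0.147 with a pseudocount of 0.1.

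The levels of Rif1 followed a course over the libraries that was closest, among the 9874 other genes that averaged at least 100 counts, to those of Nfatc2ip, Igkj1 and Igkv12-44. Likeness was measured as the Euclidean distance between log2 CPM values centred per gene over the 4 libraries, which was 0.0178, 0.0226 and 0.0270 for these genes. Nfatc2ip encodes a protein that interacts with an NFAT factor, and both others are segments of the kappa light chain locus, whose counts can be split between near-identical copies. Their log2 fold changes were −0.31, −0.28 and −0.30, close to that of Rif1 because the genes were chosen by this distance. Nfatc2ip and Igkv12-44 were called (edgeR adjusted p = 0.0431 and 0.0471), and Igkj1 was not (edgeR adjusted p = 0.307).

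Of the other proteins that signal the break, Atm is the kinase that phosphorylates 53BP1 and H2AX. Atm had 2759 and 2872 counts in WT against 2125 and 2567 in Hnrnpf bKO, with a log2 fold change of −0.20 (SE 0.06) that did not pass the test (edgeR adjusted p = 0.0873). Mdc1, which encodes the adaptor that binds phosphorylated H2AX beside the break, fell by 20.6%. Its counts were 3176 and 3239 in WT against 2243 and 2617 in Hnrnpf bKO (log2 fold change −0.33, SE 0.06, edgeR adjusted p = 0.00789). Without the first WT library Mdc1 had a log2 fold change of −0.23 and was no longer called (edgeR adjusted p = 0.0562).

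Xrcc5 encodes Ku80, which forms with Ku70 (Xrcc6) the ring that binds DNA ends for non-homologous end joining. The gene, ENSMUSG00000026187, lies at chr1:72307427-72394952 on the plus strand. It had 29.6 and 28.9 CPM in WT (484 and 551 counts) against 25.9 and 26.9 in Hnrnpf bKO (407 and 482 counts). Both Hnrnpf bKO libraries were lower, by less than the test could separate (log2 fold change −0.15, SE 0.09, 95% interval −0.34 to 0.05, edgeR adjusted p = 0.404). Xrcc6 had 580 and 684 counts in WT against 595 and 659 in Hnrnpf bKO, with a log2 fold change of 0.06 (edgeR adjusted p = 0.714). Prkdc, which encodes the kinase that Ku recruits, had 1741 and 2059 counts in WT against 1732 and 2009 in Hnrnpf bKO, with a log2 fold change of 0.05 (edgeR adjusted p = 0.659).

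Lig4 encodes DNA ligase IV, which seals the joined ends together with Xrcc4. The gene, ENSMUSG00000049717, lies at chr8:9969049-9977686 on the minus strand. It had 13.0 and 12.5 CPM in WT (213 and 239 counts) against 11.8 and 9.65 in Hnrnpf bKO (185 and 173 counts). Both Hnrnpf bKO libraries were below WT, and the second was the lowest. The log2 fold change of −0.26 was close in size to that of Rif1, with a wider error (SE 0.15, 95% interval −0.58 to 0.06, edgeR adjusted p = 0.362). Xrcc4 had 93 and 138 counts in WT against 114 and 129 in Hnrnpf bKO, with a log2 fold change of 0.16 (edgeR adjusted p = 0.708).

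Of the members that work with a partner, 4 were set against it within each library, as a ratio of FPKM values. Rif1 over Trp53bp1 was 1.12 and 1.23 in WT against 0.903 and 0.978 in Hnrnpf bKO. Thus Rif1 mRNA exceeded that of Trp53bp1 per length in both WT libraries and lay under it in both Hnrnpf bKO libraries. This order depends on the exonic lengths used. In CPM, which is not per length, Trp53bp1 (90.7 to 96.4) lay above Rif1 (64.5 to 82.8) in every library. Xrcc5 over Xrcc6 was 1.47 and 1.41 in WT against 1.20 and 1.28 in Hnrnpf bKO. Lig4 over Xrcc4 was 1.85 and 1.40 in WT against 1.32 and 1.09 in Hnrnpf bKO. These 3 ratios did not overlap between the groups, while Polh over Rev3l, which encodes the catalytic subunit of polymerase zeta, did, at 0.52 and 0.60 in WT against 0.588 and 0.534 in Hnrnpf bKO. A two-sided exact permutation test of 2 against 2 libraries cannot give a p below 0.333, which was the value for each of the 3 ratios. In CPM, the groups did not overlap for 50.1% of all genes tested. No such share is given for ratios of other gene pairs, so the 3 ratios are not read as particular to these members.

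**Figure D4:**
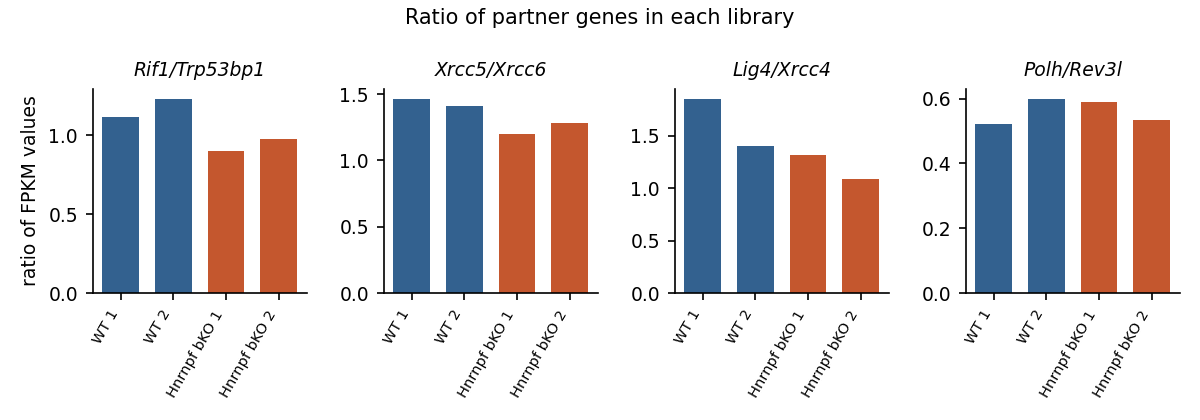
Ratio of the FPKM values of 4 members to their partners, with a bar for each library. Rif1/Trp53bp1, Xrcc5/Xrcc6 and Lig4/Xrcc4 are lower in both Hnrnpf bKO libraries, and Polh/Rev3l overlaps.

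The rest of the pathway was described by 6 lists with 58 other genes, of which 57 were tested. Of the 57, 3 fell (5.26%) and none rose by edgeR's test, beside 2.83% of all genes called lower and 6.97% called in either direction. At an unadjusted p under 0.05 by edgeR, 2 were higher and 8 lower. The share of all genes at this unadjusted limit is not given here, so no direction of the pathway is read from these counts. DESeq2 called 3 lower and none higher, and limma called none. The median log2 fold change was −0.02, 28 positive and 29 negative, and 30 of the 57 (52.6%) had groups that did not overlap.

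The 3 called genes belonged to 3 lists. Mdc1 was the 1 called of 14 genes of break signalling and end protection. Poli, which encodes the error-prone polymerase iota, was the 1 of 7 translesion polymerases, with 831 and 932 counts in WT against 604 and 660 in Hnrnpf bKO. It fell by 24.5% (log2 fold change −0.41, SE 0.08, edgeR adjusted p = 0.00822). Polm, which encodes polymerase mu of end joining, was the 1 of 8 end joining partners, with 1906 and 2093 counts in WT against 1509 in both Hnrnpf bKO libraries. It fell by 20.4% (log2 fold change −0.33, SE 0.07, edgeR adjusted p = 0.0135), and without the second Hnrnpf bKO library its log2 fold change of −0.23 was no longer called (edgeR adjusted p = 0.0648). None of the 10 genes of deamination and its targeting, the 11 of uracil excision and single-strand break repair or the 7 mismatch repair partners was called by edgeR, DESeq2 or limma, with 1, 2 and 1 at an unadjusted p under 0.05 by edgeR.

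**Figure D5:**
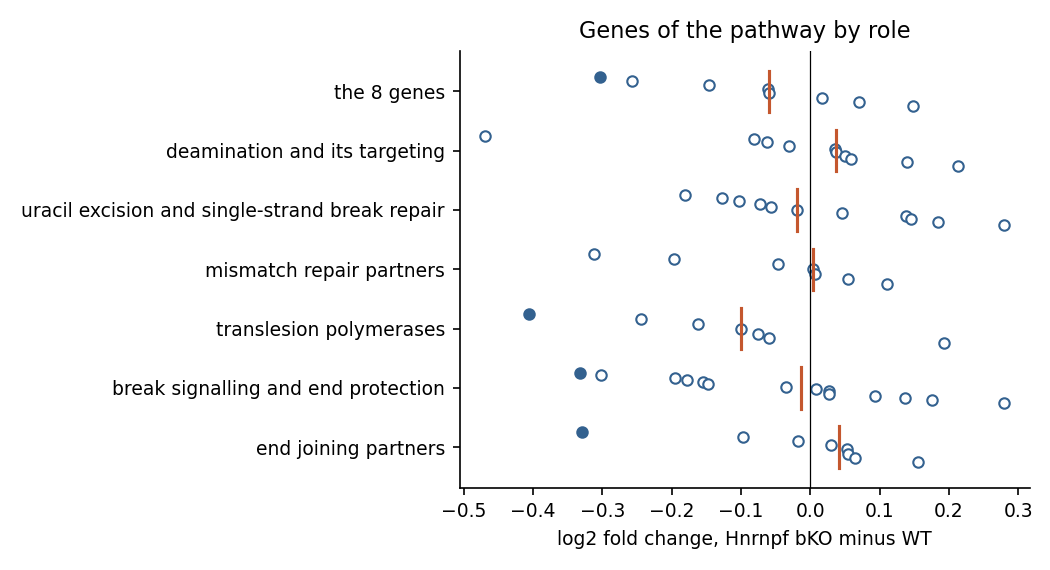
Log2 fold change of Hnrnpf bKO over WT for the 8 genes and the 57 tested genes of 6 pathway lists, a point for each gene and an orange bar at each list's median. Filled points (Rif1, Poli, Mdc1 and Polm) have an adjusted p of at most 0.05, and all 4 lie between −0.41 and −0.30.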

How the data were processed

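Poly(A) RNA of sorted FOB cells was sequenced in paired ends. The submitters' processing notes name bcl2fastq 2.17.1.14, FastQC 0.10.1, cutadapt 1.9.1, HISAT2 2.0.1 and HTSeq 0.6.1 with GRCm38. The authors deposited whole-number counts per gene, without normalization. The deposited FPKM were computed by the authors from counts, exonic size and library total. The strand setting and annotation release are not given in the sources used here. The authors' splicing list (rMATS turbo) gives gene and event type, which were used. Its FDR and inclusion level difference are the authors' own comparison and were not used.

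Counts were compared with edgeR 4.0.16 in R 4.3.3 (TMM, filterByExpr, quasi-likelihood F test, Benjamini-Hochberg over 14123 genes). The script was tested on simulated data. Per-library precision rests on 15698567 to 18908963 counts, and the biological coefficient of variation was 5.90%. Partner ratios were compared with exact permutation tests. Alternatives were RLE factors, DESeq2 1.42.0, 2 filters, limma-trend (limma 3.58.1, mean FPKM 0.5 or more) with a pseudocount of 0.1 or 1 added before log2, a block for replicate number, and each library left out.

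The members, lists and alternatives were chosen with earlier results of these data known. Named were the members, Hnrnpf, partner genes, called pathway genes and markers, and the 3 genes nearest in profile to the member with the largest log2 fold change among those averaging at least 100 counts. Genes of the splicing list, Rev3l, Tubgcp4 and the gene similar to Msh6 were named for what the results needed. Some genes under this rule are not reported here. Coordinates are those of the deposited table and equal GENCODE M21 (GRCm38), except for the start of Xrcc5 (72307421 in GENCODE). Exon sequences were read from the GENCODE transcripts, and similar genes were searched with blastn at 90% identity or more.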

Additional observations from a re-analysis of the deposited data

How the results depend on the processing

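Of the 8 members, Rif1 alone was called, and it kept its direction under all 11 alternatives, with log2 fold changes between −0.33 and −0.27 with each library left out, and −0.31 and −0.28 with limma on log2(FPKM + 0.1) and log2(FPKM + 1). Its adjusted p ran from 0.00168 to 0.149, and the call was lost in 4 of the 11. Without each library in turn, the log2 fold change ran from −0.21 to 0.32 for Exo1, −0.15 to 0.042 for Polh, −0.020 to 0.059 for Trp53bp1 and −0.13 to 0.0083 for Ung, all of which changed sign. Msh6 (0.08 to 0.22), Xrcc5 (−0.17 to −0.12) and Lig4 (−0.40 to −0.12) did not, and none was called. Exo1 fell under the FPKM minimum of limma.

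Of all genes, 985 were called (586 higher, 399 lower), with 621 by DESeq2, 45 and 41 by limma, and 679 to 861 with a library left out. At 2-fold, 127 were called, with 73 by DESeq2, 22 and 19 by limma, 217 without the filter, and 116 to 140 with a library left out. Of the 57 pathway genes, 3 were called in the fit reported and 0 by limma at either pseudocount (8 at an unadjusted p under 0.05), and 2 to 4 with a library left out. Of the markers, 14 were called, 1 by limma at either pseudocount and 10 to 15 with a library left out. In the order of levels 5 of 7 neighbours were apart, 6 on the CPM scale, which is not per length, and 5 to 6 with a library left out. The cause of these shifts was not tested.

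The replicate numbers mark no stated pairing, and the deviations of same-numbered libraries had a correlation of −0.0956 across genes. With the replicate block 612 genes were called, 98 of them at 2-fold, 9 markers and 3 pathway genes, and Rif1 had an adjusted p of 0.0418.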

Other observations

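The gene ontology terms in the deposited table gave a wider view, chosen after the values of the members were seen. Isotype switching or somatic hypermutation was annotated for 56 genes, 4 of the members (Ung, Msh6, Exo1 and Lig4) among them, and 34 were tested. Of the 34, 3 were called by edgeR's quasi-likelihood test (8.82%), beside 6.97% of all genes tested. Clcf1, which encodes a B cell stimulating cytokine, rose by 0.35 on the log2 scale (edgeR adjusted p = 0.00092). Swap70, which encodes a signalling protein of B cells, had a log2 fold change of −0.18 (edgeR adjusted p = 0.0362), and Polm is described above.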
